A study of Mus musculus with 4 samples.

Results

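Cyclin-dependent kinase inhibitors are the proteins that restrain the kinases driving the cell division cycle, and 8 of their genes were followed here in cultured mouse neural progenitor cells depleted of Rybp. The genes were chosen by name: Cdkn1a, Cdkn1b and Cdkn1c of the Cip/Kip family, Cdkn2a, Cdkn2b, Cdkn2c and Cdkn2d of the Ink4 family, and Cdkn3. All 8 had a row among the 13881 genes of the table, and all 8 passed the filter on low values, a mean of at least 1 FPKM (reads scaled to gene length and library depth) over the 4 libraries, which left 12062 genes for testing.

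The cells were taken at embryonic day 14 from forebrains of C57bl/6 mice and expanded in a proliferation medium with B27 supplement at 2%, EGF at 20 ng/ml and FGF-2 at 20 ng/ml. In the shRybp group a lentivirus delivered a short hairpin RNA against Rybp, a partner of the catalytic subunits of Polycomb repressive complex 1. The control group is labelled ctrl for the hairpin, without a named vector. There were 2 libraries per group, not stated to be separate cultures or infections. Every p-value therefore reflects only how far these libraries scatter, which may be technical. The comparison of shRybp with control asks how depleting Rybp alters transcript levels in dividing progenitors.

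Cip/Kip proteins bind cyclin and kinase together and act mainly on cyclin E and cyclin A complexes of Cdk2. Ink4 proteins bind Cdk4 and Cdk6 alone and keep them from the D cyclins, which holds the retinoblastoma protein in its active, growth-restraining form. The locus of Cdkn2a and Cdkn2b is a classical Polycomb target, and loss of the Polycomb protein Bmi1 is known to release it in neural stem cells. Cdkn3 stands apart, as a phosphatase that removes the activating phosphate from Cdk2 and Cdk1 and is itself transcribed in G2 and M phase.

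Total counts per library were between 14355308 and 17598873. Rybp itself had 4.43 and 3.95 FPKM in the control libraries and 3.01 and 2.66 in the shRybp libraries, 65.8% of control in the fit (log2 fold change -0.60, edgeR adjusted p = 0.0017), so much of the transcript remained. All 12 neural progenitor markers had a row and 11 were tested, of which 2 rose (Nes and Vim) and 6 fell, among them Hes5, Slc1a3, Fabp7 and Msi1. Of 8 microglia markers and 8 endothelium and pericyte markers, 2 and 3 had a row, and their summed level was at most 0.967 and 1.05 FPKM in any library. All 10 astrocyte markers fell, from a summed 671 and 688 FPKM in the controls to 273.2 and 299.6 FPKM in shRybp, and 4 of 8 tested oligodendrocyte lineage markers fell. In such bulk samples fewer cells of a type and less RNA per cell cannot be told apart.

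Of the 8 inhibitor genes, Cdkn1c and Cdkn2b fell, Cdkn3 rose, and 5 did not pass the test. A gene rose or fell here when its edgeR quasi-likelihood test passed an adjusted p of 0.05, with adjustment over all 12062 genes. The 3 called members are 37.5% of the 8, beside 33.0% of all genes tested. This share is close to the background. The median log2 fold change of the 8 members was 0.05 and that of all genes 0.00, and the median size of the change regardless of sign was 0.19 for the members and 0.19 for all genes. Control and shRybp values in FPKM, which carry no TMM scaling, were fully separated for 5 members, 62.5%, beside 67.5% of all genes. Of these, 3 members lay higher in shRybp, beside 38.5% of all genes, and 2 lower, beside 29.0%. Rises made up 16.3% and falls 16.7% of all genes tested, the background for the counts of every gene list below. By size of change, 1 member, Cdkn1c, fell by 2-fold or more, as did 1.21% of the genes tested.

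**Figure D1:**
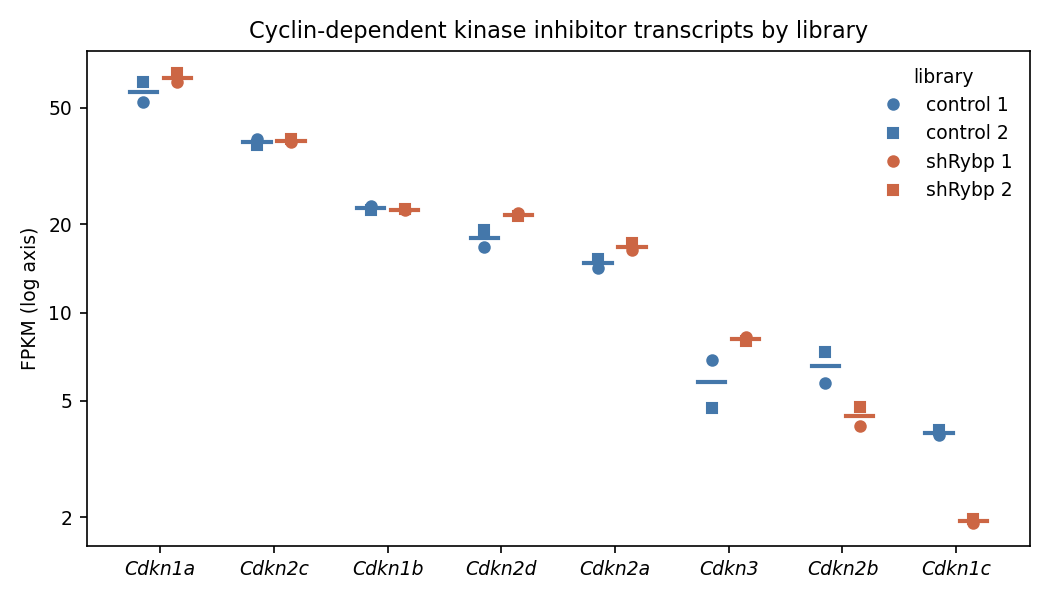
FPKM of the 8 genes in each library on a log axis, ordered by mean level, with control in blue and shRybp in orange; circles are replicate 1, squares are replicate 2 and bars are group means. The shRybp values of Cdkn1c (1.91 and 1.97) and Cdkn2b (4.10 and 4.77) lie below their controls, those of Cdkn3 (8.27 and 8.01) lie above, and the 2 controls of Cdkn3 are far apart.

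The order of the levels was nearly the same in both groups. On the FPKM scale, which allows genes to be compared, Cdkn1a stood highest in the controls, followed by Cdkn2c, Cdkn1b, Cdkn2d, Cdkn2a, Cdkn2b, Cdkn3 and Cdkn1c. The libraries of each gene in that order did not overlap those of the next, with the exception of Cdkn2b (5.75 to 7.34 FPKM) and Cdkn3 (4.73 to 6.87 FPKM). In shRybp the same neighbours had changed places and no longer overlapped. Cdkn1a lay at the 94.1st percentile of mean level among the genes tested and Cdkn1c at the 19.2nd percentile, so the members span most of the range of expression.

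**Figure D2:**
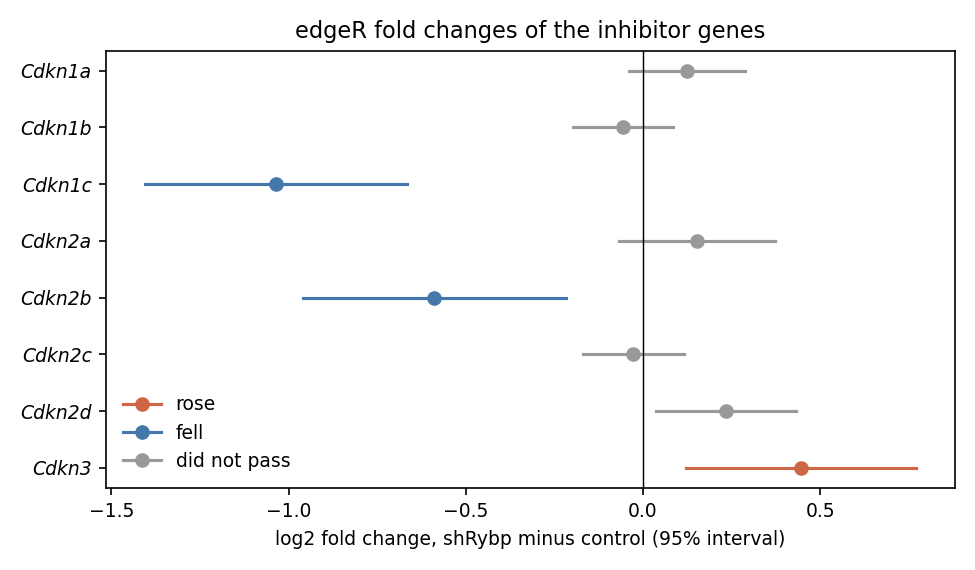
Log2 fold change of shRybp minus control for each gene, as points with 95% intervals from edgeR; blue fell, orange rose and grey did not pass an adjusted p of 0.05. Cdkn1c (-1.04) is the farthest from 0, and the intervals of Cdkn1b and Cdkn2c are the narrowest around it.

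Cdkn1c encodes p57Kip2, the Cip/Kip member best known for driving cell cycle exit in embryonic tissues, and it is imprinted, with expression from the maternal copy. The gene (ENSMUSG00000037664) lies on mm10 chromosome 7, 143458339 to 143461050, minus strand. The controls had 3.81 and 3.96 FPKM and the shRybp libraries 1.91 and 1.97 (137, 129, 56 and 66 counts). The libraries of a group were nearly equal, and both shRybp libraries lay far below both controls. The level in shRybp was 48.8% of control (95% interval 37.7% to 63.1%), or -1.04 on the log2 scale (SE 0.17; edgeR adjusted p = 0.00059), and by the size of its change it ranked at place 189 of 12062 genes. The fall passed the threshold under all 15 alternatives run, with adjusted p from 7.0e-05 to 0.0027, although 2 of these alternatives gave identical results. An antisense gene model, Gm44732, overlaps its exons, with a longest aligned stretch of 422 bases. Without strand information, reads of the 2 cannot be told apart. Summed astrocyte markers were lower in the same libraries, and their part in the fall of Cdkn1c was not tested.

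Within 1000 kb of its start site 12 other genes were tested, of which 4 rose and 1 fell, with a median log2 fold change of 0.04. The gene that fell was H19, the imprinted non-coding RNA at the neighbouring domain, with 3.27 and 3.59 FPKM in the controls and 1.38 and 1.19 in shRybp (36.5% of control, log2 -1.45, edgeR adjusted p = 8.5e-05). Of the nearest tested genes on either side, Cars, the cysteinyl-tRNA synthetase gene, rose (0.51) and so did Tssc4 (0.35). Nap1l4 (-0.15, edgeR adjusted p = 0.076) and Cd81 (-0.15, edgeR adjusted p = 0.10) did not pass. Tssc4 and Cd81 lie 387 and 390 kb away. Of 14 listed genes of the domain only 6 had a row, and Kcnq1, Slc22a18, Phlda2 and Ascl2 were among those absent. Kcnq1ot1, named here although it was not tested, is the long antisense RNA that silences the paternal copy of the domain. It had 170, 187, 244 and 164 counts in control 1, control 2, shRybp 1 and shRybp 2. It was below the filter at 0.10 to 0.18 FPKM over its long locus, and with no filter its log2 fold change was 0.30 (edgeR adjusted p = 0.27).

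Imprinted genes as a list, H19 included, moved both ways. Of 35 listed, 20 were tested, of which 5 rose and 6 fell, with a median log2 fold change of -0.07. Those with the largest falls were H19, Zrsr1 (-0.49), Nnat (-0.46) and Commd1 (-0.45). Those with the largest rises were the retrotransposon-derived gene Peg10 (0.92), the receptor gene Igf2r (0.77), the adaptor gene Grb10 (0.74) and Peg12 (0.53).

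**Figure D3:**
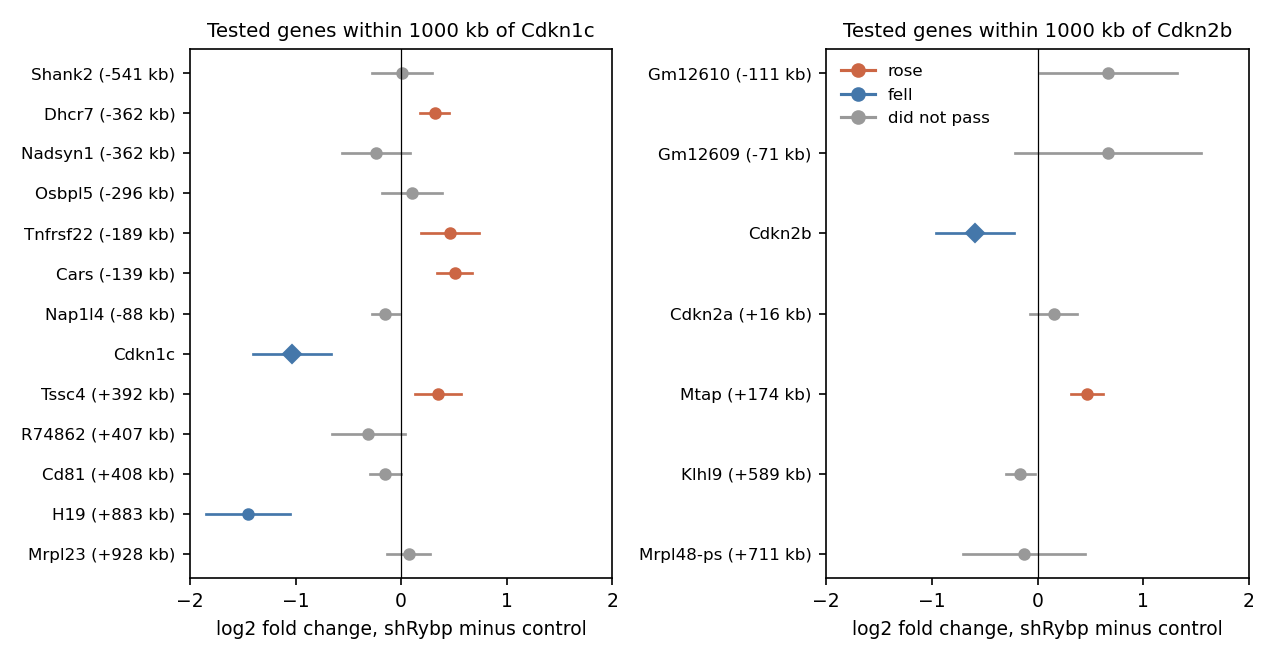
Log2 fold changes with 95% intervals of the tested genes within 1000 kb of Cdkn1c (left) and Cdkn2b (right), in order along the chromosome, with the distance between start sites in kb (positive is downstream); diamonds mark the 2 named genes. Around Cdkn1c the other gene that fell is H19 (-1.45), and around Cdkn2b the gene that rose is Mtap (0.47).

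The 5 protein-coding genes whose pattern over the 4 libraries was most like that of Cdkn1c were Ppm1k, Nrarp, Gm2a, Amotl2 and Anks1b. The measure was the Euclidean distance between log2 values of depth-scaled counts (log2 CPM) centred on each gene's mean, and it was 0.02 for Ppm1k, 0.03 for Nrarp, 0.04 for Gm2a, 0.04 for Amotl2 and 0.05 for Anks1b. The log2 fold changes of these genes ran from -0.97 for Anks1b to -1.06 for Amotl2, close to that of Cdkn1c because the genes were chosen by this distance.

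Cdkn1a encodes p21Cip1, the inhibitor induced by p53 and by many stress signals, and its transcript was the most abundant of the family. The gene (mm10 chromosome 17, 29090976 to 29100727, plus strand) had 52.1 and 61.3 FPKM in the controls and 61.0 and 65.6 in shRybp. The groups overlapped, since shRybp 1 lay just below control 2. The log2 difference was 0.12, between -0.04 and 0.29 at 95% (edgeR adjusted p = 0.23), an upper bound of 122% of control. It passed under 2 of 15 alternatives. Without control 2 the log2 fold change was 0.23 (edgeR adjusted p = 0.036), and without control 1 it was 0.02 (edgeR adjusted p = 0.91). AC167363.2, a gene model on the other strand, overlaps its exons, with a longest aligned stretch of 262 bases. Nearby Trp53cor1, the non-coding RNA lincRNA-p21, had a log2 fold change of 0.39 and did not pass (edgeR adjusted p = 0.072).

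Cdkn1b encodes p27Kip1, which holds Cdk2 inactive in cells leaving the cycle and is controlled largely through degradation of the protein. Its transcript barely differed. The gene (mm10 chromosome 6, 134920401 to 134925513, plus strand) had 23.2 and 22.4 FPKM in the controls and 22.4 and 22.6 in shRybp, with overlapping groups. Its log2 difference was -0.06, between -0.20 and 0.08 at 95% (edgeR adjusted p = 0.54).

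As a family, Cip/Kip transcripts summed to 79.1 and 87.7 FPKM in the controls and 85.3 and 90.1 in shRybp, with overlapping groups. Cdkn1a made up 65.9% and 69.9% of that sum in the controls and 71.5% and 72.8% in shRybp. Cdkn1c made up 4.82% and 4.52% in the controls and 2.24% and 2.19% in shRybp, a small part of the sum in every library. As shares of counts not divided by gene length, the mean for Cdkn1c was 2.53% in control and 1.19% in shRybp. The ratio of Cdkn1c to Cdkn1b in FPKM was 0.164 and 0.177 in the controls and 0.0853 and 0.0873 in shRybp (exact two-sided permutation p = 0.333, the smallest that 2 against 2 libraries allow).

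**Figure D4:**
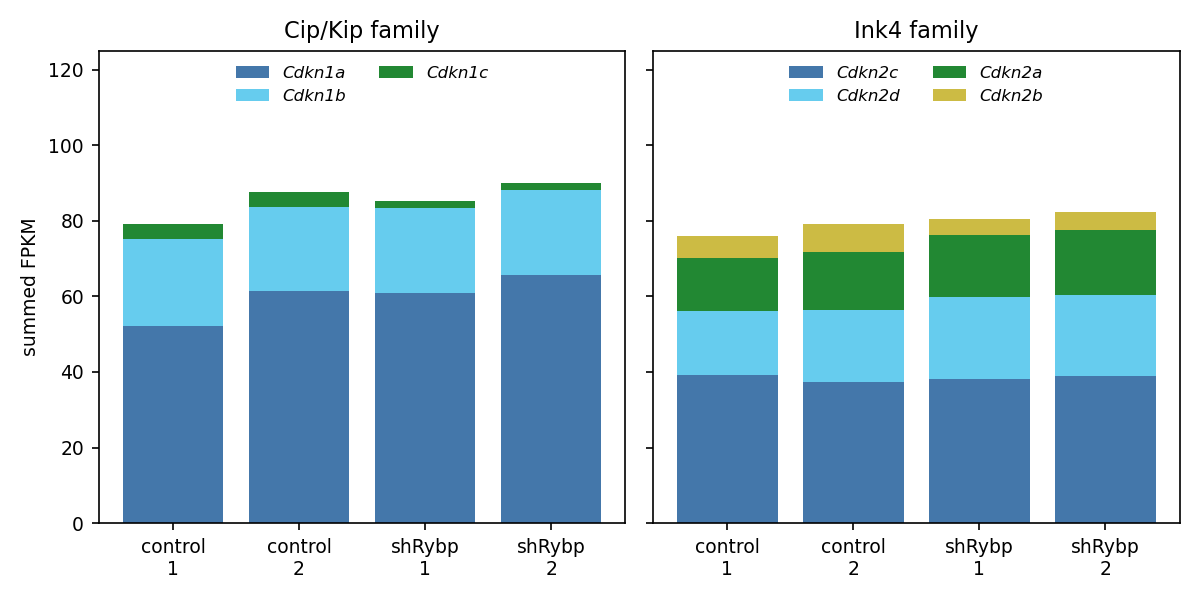
Summed FPKM of the Cip/Kip genes (left) and the Ink4 genes (right) in each library, as bars stacked by gene. Sums run from 79.1 to 90.1 for Cip/Kip and from 76.0 to 82.3 for Ink4, while the slices of Cdkn1c and Cdkn2b are thinner in the shRybp libraries.

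Cdkn2b, which encodes p15Ink4b, an inhibitor induced by TGF-beta, was the Ink4 gene that fell. The gene (ENSMUSG00000073802, mm10 chromosome 4, 89306299 to 89311039, minus strand) had 5.75 and 7.34 FPKM in the controls (141 and 163 counts) against 4.10 and 4.77 FPKM under shRybp (82 and 109 counts). Both shRybp libraries lay below both controls, and the controls were not close to each other. The level in shRybp was 66.5% of control (95% interval 51.4% to 86.0%), or -0.59 as a log2 difference (SE 0.17; edgeR adjusted p = 0.019). The call ended without control 2 (-0.42, edgeR adjusted p = 0.12), without shRybp 1 (-0.49, edgeR adjusted p = 0.095) and in DESeq2 (-0.59, adjusted p = 0.086). The part of the lower astrocyte markers in this difference was not tested.

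Cdkn2a lies 11.6 kb from Cdkn2b on the same strand (ENSMUSG00000044303, mm10 chromosome 4, 89274471 to 89294653) and encodes unrelated products from separate first exons, p16Ink4a and the p53 activator p19Arf, whose start sites are 12.5 kb apart. A count per gene does not separate these transcripts. Cdkn2a had 14.2 and 15.3 FPKM in the controls and 16.3 and 17.2 in shRybp, from 294, 286, 275 and 332 counts. The groups did not overlap, but the log2 difference of 0.15 missed the threshold (95% interval -0.07 to 0.37; edgeR adjusted p = 0.28). The upper limit of that interval is 129% of control, for the merged counts and in this fit only. Its mean level over the 4 libraries lay at the 72.1st percentile of the genes tested. The ratio of Cdkn2b to Cdkn2a in FPKM was 0.404 and 0.481 in the controls and 0.251 and 0.277 in shRybp (exact two-sided permutation p = 0.333, the smallest possible).

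The stretches before the start sites of this locus are shown because Cdkn2b was the Ink4 gene that fell and because the counts merge the 2 starts of Cdkn2a. They come from RefSeq on GRCm38.p6 and run 5′ to 3′ on the minus strand up to the first annotated exon base. Capitals mark matches on either strand to GGGCGG (the GC box), TTTNNCGC (a loose E2F pattern) and TTTGAA (the CHR element). In the E2F pattern N is any base, so a match need not be an E2F consensus site.
Cdkn2b, chr4:89311040-89311282: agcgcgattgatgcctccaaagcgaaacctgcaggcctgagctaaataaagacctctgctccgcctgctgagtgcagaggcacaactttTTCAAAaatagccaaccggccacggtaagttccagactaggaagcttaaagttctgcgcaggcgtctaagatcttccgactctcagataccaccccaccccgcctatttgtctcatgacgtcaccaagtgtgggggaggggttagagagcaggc
Cdkn2a at the p16Ink4a start, chr4:89282193-89282442: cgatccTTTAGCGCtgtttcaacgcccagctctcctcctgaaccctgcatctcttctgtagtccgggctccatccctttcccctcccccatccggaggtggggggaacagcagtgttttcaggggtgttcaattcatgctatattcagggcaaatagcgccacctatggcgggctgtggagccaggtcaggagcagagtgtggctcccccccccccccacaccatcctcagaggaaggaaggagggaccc
Cdkn2a at the p19Arf start, chr4:89294654-89294869: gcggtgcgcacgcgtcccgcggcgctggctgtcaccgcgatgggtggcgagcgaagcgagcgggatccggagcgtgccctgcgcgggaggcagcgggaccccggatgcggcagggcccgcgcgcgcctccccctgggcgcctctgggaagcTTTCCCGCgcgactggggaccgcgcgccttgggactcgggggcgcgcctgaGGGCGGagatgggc
In windows of 300 bases (250 before to 50 after the RefSeq start) the p19Arf window had 45 CpG dinucleotides and 77.0% G and C, the Cdkn2b window 18 and 57.7%, and the p16Ink4a window 12 and 60.3%, beside medians of 7 and 52.7% over 32817 windows of all genes. A match to TTTNNCGC stood in both Cdkn2a windows, from base -244 to -237 before the p16Ink4a start and from -99 to -92 before the p19Arf start, and in 5.16% of all windows. The Cdkn2b window held TTTGAA on the other strand, written TTCAAA in the line above, from -161 to -156, as 17.9% of all windows hold it. Windows were found for 7 of the 8 genes, all but Cdkn1c.

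Within 1000 kb of the Cdkn2b start 6 other genes were tested, of which 1 rose and 0 fell. Mtap, a methionine salvage enzyme gene often lost together with this locus in tumours, rose from 24.2 and 22.5 FPKM to 33.6 and 32.7 (log2 fold change 0.47, edgeR adjusted p = 0.00031). On the far side the non-coding Gm12610 had 22, 20, 26 and 37 counts (log2 0.67 with a 95% interval of 0.02 to 1.32; edgeR adjusted p = 0.11). Over all members 28 distinct nearest neighbours were tested, of which 5 rose and 1 fell, beside 16.3% and 16.7% of all genes tested.

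Cdkn2c and Cdkn2d encode p18Ink4c and p19Ink4d, both Ink4 proteins present in the developing brain. Cdkn2c (mm10 chromosome 4, 109660876 to 109667189, minus strand) had 39.2 and 37.4 FPKM in the controls and 38.1 and 39.0 in shRybp. Its groups overlapped, at a log2 difference of -0.03, between -0.17 and 0.12 (edgeR adjusted p = 0.78), and the sign turned under 4 of 15 alternatives. Cdkn2d (mm10 chromosome 9, 21288410 to 21291407, minus strand) had 16.8 and 19.1 FPKM in the controls and 21.9 and 21.3 in shRybp. Both shRybp libraries of Cdkn2d lay above both controls, yet the difference narrowly missed the threshold (log2 0.23 with a 95% interval of 0.04 to 0.43; edgeR adjusted p = 0.067). It passed under 5 of 15 alternatives. Among these was the fit without control 2 (0.31). Others were library totals in place of TMM scaling (0.27, edgeR adjusted p = 0.042), and limma on log2(FPKM + 1) (0.26, adjusted p = 0.045) and on log2(FPKM + 0.1) (0.27, adjusted p = 0.045). The library totals and these limma fits all lack TMM scaling, so they are not independent passes. Limma on quantile-normalized log2(FPKM + 1) did not pass (0.23, adjusted p = 0.069).

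Ink4 transcripts summed to 76.0 and 79.1 FPKM in the controls and 80.4 and 82.3 in shRybp. These sums carry no TMM scaling, so the slightly higher shRybp values cannot be told apart from a difference in scaling. Over all genes tested the median log2 fold change was 0.038 in limma on log2(FPKM + 0.1) and 0.003 in the main fit. Cdkn2c made up between 47.3% and 51.6% of the sum in every library. The share of Cdkn2b was 7.57% and 9.28% in the controls and 5.10% and 5.80% in shRybp, and that of Cdkn2d was 22.1% and 24.1% in the controls and 27.2% and 25.9% in shRybp. Without division by gene length, the mean share in control was 65.4% for Cdkn2c and 10.97% for Cdkn2a, which on the FPKM scale had 49.46% and 19.02%.

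Cdkn3 (ENSMUSG00000037628, mm10 chromosome 14, 46760541 to 46771669, plus strand) was the member that rose, on controls that disagreed with each other. Control 1 stood at 6.87 FPKM and control 2 at 4.73, the shRybp libraries at 8.27 and 8.01 (287, 179, 282 and 312 counts). Both shRybp libraries lay above both controls, but control 1 was 1.45 times control 2, a wider gap than in 97.8% of the genes tested. The fitted log2 rise was 0.45, between 0.12 and 0.77 at 95% (edgeR adjusted p = 0.037). Without control 2 it was 0.20 (edgeR adjusted p = 0.27), without control 1 it was 0.75 (edgeR adjusted p = 0.00010), without shRybp 1 it was 0.42 (edgeR adjusted p = 0.087) and without shRybp 2 it was 0.47 (edgeR adjusted p = 0.069). The call also ended in DESeq2 (adjusted p = 0.093) and in the 3 limma fits (adjusted p from 0.062 to 0.082).

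The promoter of Cdkn3 is shown because many genes of G2 and M phase carry a CHR element near the start. It lies on the plus strand of GRCm38.p6, from RefSeq, with the same motifs in capitals.
Cdkn3, chr14:46760291-46760540: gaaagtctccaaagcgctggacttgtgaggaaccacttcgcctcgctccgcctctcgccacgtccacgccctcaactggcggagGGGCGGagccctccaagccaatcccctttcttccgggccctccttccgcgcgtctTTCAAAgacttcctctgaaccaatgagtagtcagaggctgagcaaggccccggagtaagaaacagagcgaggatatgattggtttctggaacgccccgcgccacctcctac
The CHR match, again as TTCAAA, spans bases -111 to -106. Of the 10 windows of the members only this and that of Cdkn2b held one. In the list of 37 G2 and M phase genes 26 rose and 0 fell, with a median log2 fold change of 0.30, and Plk1 (0.65), Gtse1 (0.55) and Anln (0.48) were among those that rose most. The median difference between control 1 and control 2 over these genes was 0.07 on the log2 scale, with a highest value of 0.23, whereas for Cdkn3 it was 0.55. None of the 37 had a gap between the controls as wide as that of Cdkn3. The part of the G2 and M phase genes in the rise of Cdkn3 was not tested.

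**Figure D5:**
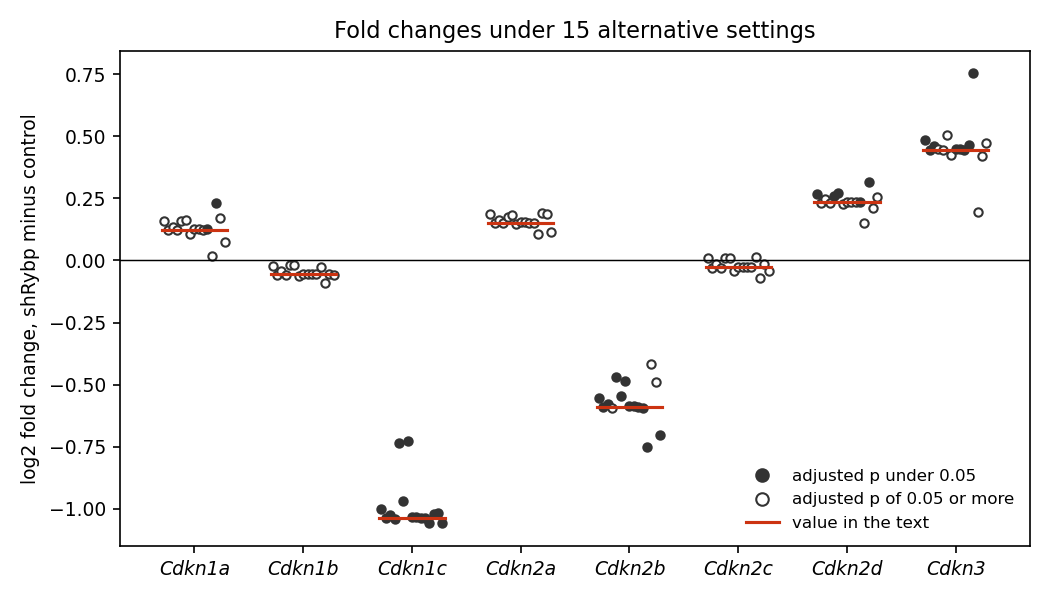
Log2 fold change of each gene under 15 alternative settings (points, filled where the adjusted p was under 0.05) around the value given in the text (red line). All 15 points of Cdkn1c are filled and range from -1.06 to -0.73, while 12 of 15 are filled for Cdkn2b and 8 of 15 for Cdkn3.

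Genes of the G1 kinase list, which holds cyclins, kinases and their regulators, rose more often than they fell. Of 14 tested genes of the G1 kinase list 7 rose and 1 fell, with a median log2 fold change of 0.23. Among cyclins, Ccnd1 rose from 223 to 403 FPKM (0.82), Ccne1 to 15.2 FPKM (0.57), and Ccna2 (0.38) and Ccnd3 (0.28) rose too. Ccnd2 had 133 FPKM in control and 137 in shRybp (0.01, edgeR adjusted p = 0.94). The activating phosphatase gene Cdc25a (0.62) rose. Among the kinases, Cdk2 (0.37) rose and Cdk7 did not pass (0.03, edgeR adjusted p = 0.80), nor did Cdk4 and Cdk6. Cdk4, the Ink4 target, had 129 and 142 FPKM (0.11, edgeR adjusted p = 0.195) and Cdk6 had 2.50 and 2.62 FPKM (0.03, edgeR adjusted p = 0.89). Mnat1, an assembly factor of the Cdk-activating kinase, was the gene that fell (-0.36).

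Set against the inhibitors in the same library, D cyclin transcripts had higher ratios in both shRybp libraries than in both controls. Summed Ccnd1, Ccnd2 and Ccnd3 were 4.77 and 4.57 times the summed Ink4 FPKM in the controls and 6.78 and 6.67 times in shRybp, and 4.58 and 4.12 times against 6.39 and 6.10 times the summed Cip/Kip FPKM. The groups do not overlap in either ratio (exact two-sided permutation p = 0.333, the smallest possible). The Ink4 sum includes Cdkn2a, whose counts merge p16Ink4a with p19Arf. Without Cdkn2a the D cyclin ratio to Ink4 was 5.86 and 5.66 in the controls and 8.51 and 8.44 in shRybp. The ratio of Cdk4 and Cdk6 to Ink4 was 1.69 in both controls and 1.78 and 1.77 in shRybp. Summed D cyclins had 362 and 361 FPKM in the controls and 545.1 and 549.6 in shRybp.

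Of 20 tested genes for pocket proteins and E2F factors, which act downstream of the kinases, 7 rose and 1 fell, with a median log2 fold change of 0.14. Rb1, the retinoblastoma gene, fell (-0.35), and its relative Rbl1, itself an E2F target, rose (0.51). The E2F genes E2f2 (0.68) and E2f1 (0.43) rose, as did Mybl2 (0.43), an activator of G2 and M phase genes. Other E2F genes, named after their values were seen, were mixed. E2f4 (0.39) and E2f8 (0.31) also rose, while E2f3 (0.07, edgeR adjusted p = 0.53), E2f5, E2f6 and E2f7 did not pass. In the S phase list 34 of 39 genes rose and 0 fell, with a median of 0.44.

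Of 14 tested genes of the machinery that degrades Cip/Kip proteins, 4 rose and 1 fell, with a median log2 fold change of 0.02. The called share is near the 33.0% of all genes tested. Skp2, the ubiquitin ligase subunit that recognises p27Kip1, rose from 6.31 to 8.40 FPKM (log2 fold change 0.38, edgeR adjusted p = 0.0021), and its cofactor Cks1b rose from 40.7 to 56.9 FPKM (0.45). Pcna (0.34) and Cdc20 (0.46) rose and Cul4a, a scaffold of another ligase, fell (-0.32). The scaffold Cul1 (0.01, edgeR adjusted p = 0.90) and the p27Kip1 ligase gene Rnf123 (0.01, edgeR adjusted p = 0.95) did not pass.

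Of 25 tested transcriptional regulators of the inhibitors 4 rose and 4 fell, with a median of 0.11. Trp53, the inducer of Cdkn1a, rose from 17.8 to 25.9 FPKM (log2 fold change 0.51), and Mdm4 (0.20), Myc (0.18) and Tcf3 (0.25) rose. The Notch effectors Hes5 (-1.79) and Hey1 (-0.86), repressors of the family to which Hes1 belongs, fell with Foxo4 (-0.29) and Id2 (-0.27). Hes1 itself, named after its values were seen, did not pass (0.14, edgeR adjusted p = 0.27). Of the 19 tested Polycomb genes linked to the Ink4 locus 5 rose and 1 fell, the latter being Rybp. Over all genes tested 16.3% rose and 16.7% fell, and the called shares of both lists are near this background. Those with the largest rises were Cbx2 (0.33), Suz12 (0.32), Eed (0.27) and Kdm2b (0.27). Bmi1, named after its values were seen, had a mean of 27.7 FPKM in control and 27.5 in shRybp (-0.05, edgeR adjusted p = 0.63).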

How the data were processed

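RNA-seq of 2 control and 2 shRybp libraries was read from the deposited table, which holds raw read counts per gene and FPKM computed by the authors, per the file headers. Coordinates are on mm10, which the submitters' processing notes name. For aligner, counter and strand setting: not given in the sources used here. Genes with a mean of at least 1 FPKM were tested on the deposited counts in edgeR 4.0.16 (R 4.3.3; TMM, quasi-likelihood, two-sided, Benjamini-Hochberg over 12062 genes, threshold 0.05). Standard errors and 95% intervals came from the F statistic. Alternatives were other scalings and filters, DESeq2 1.42.0, limma 3.58.1 on log2(FPKM + 1) or log2(FPKM + 0.1), a replicate block, and leaving out each library. Code was tested on simulated data. Exact permutation tests of 2 against 2 libraries cannot go under 0.333. GENCODE M21 gave positions and RefSeq (GRCm38.p6) promoter windows. The members and lists were chosen with earlier results of these data known. Named are all 8 members, up to 4 genes per list and direction with the largest passing changes, any G1 kinase or degradation gene, the 2 nearest tested neighbours on each side, the 5 genes most like Cdkn1c, and Rybp.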

Additional observations from a re-analysis of the deposited data

How the results depend on the processing

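Over 15 alternatives Cdkn1c fell in all, with log2 fold changes from -1.06 to -0.73, while Cdkn1b and Cdkn2a passed in 0. The values of -0.73 for Cdkn1c came from limma on log2(FPKM + 1), with and without quantile normalization. With 0.1 added in place of 1 it was -0.97. Main counts were 1 member risen and 2 fallen. Risen members numbered 2 with library totals, 0 in DESeq2, 0 in limma on quantile-normalized values and 3 with the replicate block, and fallen members numbered 1 in DESeq2. Leaving out 1 library gave 0 to 2 risen and 1 to 2 fallen members, 1296 to 1640 risen genes (1970 with all) and 1481 to 1760 fallen genes (2013 with all). The count of risen genes moved by over 1.5 times without shRybp 2. A group left with 1 library is assumed to vary like the other. The log2 fold change of Cdkn2c turned positive with library totals (0.0085), in limma on log2(FPKM + 1) (0.0088) and log2(FPKM + 0.1) (0.0090), and without control 1 (0.013; from -0.072 to 0.013 over the libraries left out). The replicate block gave 2676 risen and 2652 fallen genes. Among members it added Cdkn1a (0.13, edgeR adjusted p = 0.049) and Cdkn2d (0.23, edgeR adjusted p = 0.028). The labels do not say that a number marks a shared batch, so the numbers were not taken as pairing. Control 1 and shRybp 1 correlated at r = 0.10 in their deviations from the group means. With 2 libraries a group the other pairing gives -0.10 by construction, so this value cannot decide whether a batch was shared. Shares of a family taken from counts not divided by gene length moved by more than the spread between libraries for all 7 Cip/Kip and Ink4 genes. In control and shRybp they came to 2.53% and 1.19% for Cdkn1c (4.67% and 2.21% in FPKM), 5.77% and 3.77% for Cdkn2b (8.43% and 5.45% in FPKM), and 10.97% and 12.03% for Cdkn2a (19.02% and 20.6% in FPKM). Cdkn1c and Cdkn2b rest on 56 to 163 counts a library, which limits their precision.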

Other observations

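Of 23 tested p53 target genes, 7 rose and 4 fell, with a median log2 fold change of 0.11. Pidd1 (0.71), Tnfrsf10b (0.62) and Plk2 (0.60) rose, and Btg2 (-0.40), an antiproliferative gene, Rrm2b (-0.34), Ei24 (-0.26) and Trp53inp1 (-0.18) fell. Cdkn1a, the best known target, did not pass. Of 11 other tested genes that bind or regulate cyclin-dependent kinases or their inhibitors, 2 rose (Cdk2ap2, 0.39, and Cdkn2aipnl, 0.36) and 2 fell (Rgcc, -0.72, and Ccndbp1, -0.32). Of 11 further tested regulators of the Ink4 locus, Hmga2 (0.66), Cdc6 (0.64) and Ets1 (0.34) rose and Zfp277 (-0.43) fell.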
